A study of Mus musculus with 20 samples.

Results

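The mRNAs described here are those of 9 mouse genes, Hao1, Gyg, Pfn2, Slc49a4, Cep95, Ndufs1, App, Cdc14a and Cdc42bpa, which the literature has linked to binding by iron regulatory proteins outside the textbook set. They were chosen by name, with earlier results of these data known, so member counts set against all probe sets are descriptions, not independent support. Every probe set with 1 of these symbols in the platform annotation was taken, 23 of the 45101 probe sets on the Affymetrix mouse genome array. Of these, 16 were bright enough to be tested, among 30153 tested in all, and 7 were not. For each of the 16 the question was in which tissue the mRNA was present at a level that allows a judgement, and whether more of it was recovered with IRP2 than without.

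The study recovered RNA by immunoprecipitation with His-tagged IRP2 made in E. coli followed by anti-His antibody, beside control reactions that contained no IRP2. There were 20 arrays, 2 for the IRP2 reaction and 2 for the control reaction of each of 5 tissues. The RNA came from C57BL6/J mice of both sexes and was pooled within a tissue, over 4 mice for duodenum, liver and spleen and over 6 mice for bone marrow and brain. The IRP2 and control groups of duodenum, liver and spleen came from mice kept on an iron-poor diet (below 10 mg/kg) for 21 days after weaning, whereas the brain and bone marrow groups came from mice 8 to 10 weeks old given an iron-normal diet, so diet and age cannot be told apart from tissue between these sets. The protein met 50 µg of extracted RNA outside the cell, so the measurement is of binding to purified RNA. The sources used here do not say whether the 2 replicates of a tissue drew on the same pool, and the p-values therefore reflect just the variation among these arrays, which may be technical.

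Iron regulatory proteins bind iron-responsive elements (IREs), short RNA hairpins with a conserved apical loop, when cellular iron is low. An IRE in the 5′ untranslated region, as in the ferritin mRNAs, lets the bound protein block translation, and IREs in the 3′ untranslated region, as in the transferrin receptor mRNA, let it protect the message from decay. For App (the amyloid precursor protein) and NDUFS1 (a core subunit of respiratory complex I), 5′ elements have been reported in human mRNAs, and for human CDC14A (a cell-cycle phosphatase) and CDC42BPA (the kinase MRCKα), 3′ elements in some transcript forms. Hao1, the glycolate oxidase of liver peroxisomes, has a reported 3′ element in mouse. Pfn2 (a neuronal profilin that binds actin), Gyg (glycogenin, the primer of glycogen synthesis), Slc49a4 (a membrane transporter of lysosomes) and Cep95 (a centrosomal protein) were listed in a transcriptome-wide study of IRP binding in mouse tissues that may rest on these same arrays. If it does, enrichment of Pfn2, Gyg, Slc49a4 or Cep95 here is not independent evidence. Whether the listing of Hao1 also drew on these arrays is not known here, so the same limit may hold for Hao1.

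The letters of the canonical apical loop, CAGTGN with N any base but G, were looked up on the transcript strand in the RefSeq windows from 250 bases before to 50 bases after each gene's start (build GRCm38.p6), the only member sequence at hand. Windows were listed for 8 members, 11 windows in all, and those of Hao1 and Gyg held such letters. The sites are shown because they are the only ones found, with the loop letters in capitals and each stretch read 5′ to 3′ on the minus strand. The first Hao1 stretch, chr2:134554303-134554332, has its loop letters beginning 44 bases after the start; the second, chr2:134554573-134554602, begins them 238 bases before it, and the Gyg stretch, chr3:20155137-20155166, begins them 38 bases before it.
Hao1: atgttgcctcgactggtctgcatCAGTGAt
Hao1: cccctgctttgtCAGTGTgaccaaccctac
Gyg: tcgccccgcccgCAGTGCgcaccggggagg
Among 32851 windows of all genes, 26.6% held at least 1 such hexamer, and 5.10% held 1 in the 50 bases after the start. A match in letters is not a binding site, and the 3′ regions in which most of these elements were reported lie outside the windows. The second Hao1 stretch and the Gyg stretch lie before the listed start, so outside a transcript that begins there. The first Hao1 stretch opens with atg and reads on in that frame without a stop, so it may be coding sequence. None of these stretches was shown to lie in an untranslated region.

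Averaged over the 5 tissues, the 9 genes fell into those recovered more with IRP2 and those with a ratio near 0. The log2 difference between IRP2 and control reactions had its highest value for Pfn2, at 0.94, 0.93 and 0.80 on its 3 tested probe sets, and was 0.85 for Slc49a4, 0.72 for Hao1, 0.67 and 0.58 for Gyg, and 0.57 and 0.37 for Cep95. It lay between -0.07 and 0.17 on the 7 tested probe sets of App, Ndufs1, Cdc14a and Cdc42bpa. Of the 16 probe sets, 4 passed limma at a Benjamini-Hochberg adjusted p of 0.05 over all 30153, the 3 of Pfn2 and that of Slc49a4, all higher with IRP2, against 0.365% of all probe sets tested. With the IRP2 and control arrays of 1 replicate number as a block, 9 passed, against 1.07% of all. They came from all of Pfn2, Slc49a4, Hao1, Gyg and Cep95. Among them, Cep95 1440280_at entered the test only through its IRP2 arrays, so its call is a description only. None of the 16 passed as lower with IRP2 by limma on the mean (0.00663% of all did, and 0.146% with the block). None did in a single tissue either, where with the block 0.0133% of all were lower in each of duodenum, liver and spleen, 0.348% in bone marrow and 0.00332% in brain. At an unadjusted p under 0.05, 0 were lower in any comparison without the block and 1 with it, Cdc14a in bone marrow. The share of all probe sets lower at that unadjusted threshold was not counted, so this value is a description only.

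**Figure D1:**
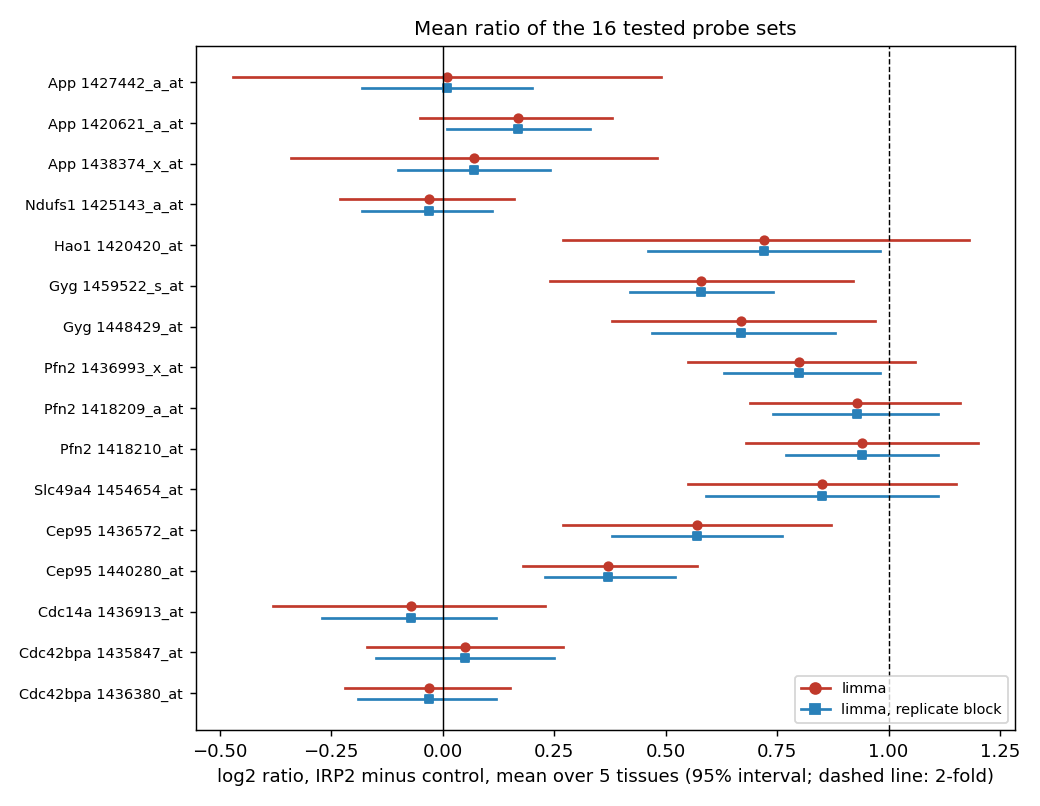
The log2 difference of IRP2 minus control reactions, averaged over 5 tissues, is plotted for the 16 tested probe sets with 95% intervals, red circles from limma and blue squares from the fit with the replicate block; the dashed line marks a 2-fold difference. The intervals of Pfn2, Slc49a4, Hao1, Gyg and Cep95 lie wholly above 0, and those of Ndufs1 and Cdc14a include 0 and end below the dashed line.

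Pfn2 had the highest mean ratio over the 5 tissues among the 9 genes, on 2 of its 3 tested probe sets. Probe set 1418209_a_at read 8.57 and 8.55 on the log2 scale in duodenum with IRP2, against 6.91 and 7.27 in the controls. Liver Pfn2 read 8.68 and 8.42 with IRP2 and 7.34 and 7.20 in the controls, and spleen Pfn2 9.31 and 8.84 with IRP2 and 7.93 and 7.71 in the controls. In these 3 tissues both IRP2 arrays lay above both controls. Bone marrow Pfn2 read 5.96 and 6.07 with IRP2 and 6.05 and 5.32 in the controls, and the groups overlapped. Brain Pfn2 read 13.46 and 13.28 with IRP2 and 13.05 and 13.09 in the controls, the highest level of the 5 tissues and a narrow gap with no overlap.

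The mean Pfn2 ratio of this probe set was 0.93 ± 0.11 (log2, SE, 5 tissues of 2 arrays per reaction; 1.90-fold; limma adjusted p = 0.000345), and it ranked 59th of 30153. Probe set 1418210_at gave 0.94 ± 0.12 (adjusted p = 0.000675), ranked 57th, and its IRP2 arrays exceeded the controls without overlap in every one of the 5 tissues, which held for 0.229% of all probe sets. In bone marrow its controls read 4.49 and 3.97, below their array medians, so that separation is between dim values. Probe set 1436993_x_at gave 0.80 ± 0.12 (adjusted p = 0.00243), with 10 of 10 replicate pairs above 0; its _x_at suffix marks probes that other transcripts may share. The 3 probe sets gave like ratios at unlike levels, their single brain controls running from 11.27 to 13.09.

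By tissue, Pfn2 in duodenum was the only member probe set called without the block, at 1.47 ± 0.25 for 1418209_a_at (2.77-fold; limma adjusted p = 0.0354), 1 of 16 against 0.073% of all probe sets. That call was lost when any 1 of the 4 duodenum arrays was left out (adjusted p from 0.127 to 0.786, ratio from 1.29 to 1.64), after quantile normalization (1.37, adjusted p = 0.0604) and in a fit on duodenum alone (adjusted p = 0.29). With the replicate block, all 3 Pfn2 probe sets were called in duodenum (adjusted p = 0.00357 for 1418209_a_at, 0.00954 for 1418210_at and 0.0063 for 1436993_x_at; 3 of 16 against 0.282% of all), and 1418209_a_at and 1418210_at in liver (1.28 and 1.10; adjusted p = 0.0149 and 0.0241) and in spleen (1.25 and 1.18; adjusted p = 0.0114 for each). Brain Pfn2 ratios were 0.30, 0.64 and 0.33 on 1418209_a_at, 1418210_at and 1436993_x_at, none called with or without the block, although brain held Pfn2 at the 98.5th percentile of its control arrays or above.

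Slc49a4 read higher with IRP2 on every array of 4 of the 5 tissues. On 1454654_at, duodenum Slc49a4 read 9.12 and 8.88 with IRP2 and 7.74 and 7.75 in the controls. Liver Slc49a4 read 9.05 and 8.44 with IRP2 and 7.77 and 7.65 in the controls, and spleen Slc49a4 8.71 and 8.42 with IRP2 and 7.75 and 7.64 in the controls. Brain Slc49a4 read 8.50 and 8.77 with IRP2 and 7.58 and 7.87 in the controls. No IRP2 array overlapped a control in these 4 tissues, a separation in at least 4 tissues that 0.929% of all probe sets had. Bone marrow Slc49a4 read 6.62 and 6.97 with IRP2 and 7.21 and 6.04 in the controls, so both IRP2 values fell between the controls. The mean ratio was 0.85 ± 0.14 (1.8-fold; limma adjusted p = 0.007; rank 72 of 30153). Single tissues gave 1.26 in duodenum, 1.03 in liver, 0.91 in brain, 0.87 in spleen and 0.17 in bone marrow, none called with or without the block. The mean control level of Slc49a4 was 7.74 in duodenum, 7.71 in liver, 7.69 in spleen and 7.73 in brain, and lower in bone marrow at 6.62. Its second probe set, 1457245_at, stayed between 3.17 and 4.84 on all 20 arrays and was not tested.

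Gyg was recovered more with IRP2 most clearly in spleen. Spleen Gyg on 1459522_s_at read 11.66 and 11.51 with IRP2 and 10.47 and 10.53 in the controls. Duodenum Gyg read 9.47 and 9.53 with IRP2 and 8.91 and 8.97 in the controls, and liver Gyg 9.29 and 8.98 with IRP2 and 8.60 and 8.35 in the controls. Brain Gyg read 10.09 and 10.26 with IRP2 and 9.37 and 9.96 in the controls. In these 4 tissues the IRP2 arrays lay above the controls. Bone marrow Gyg read 10.93 and 10.04 with IRP2 and 11.07 and 9.74 in the controls, with full overlap. The spleen ratio was 1.09 ± 0.36 (2.13-fold; limma adjusted p = 1, and 0.00971 with the replicate block). The dimmer probe set 1448429_at gave 1.21 ± 0.31 in spleen (adjusted p = 0.603, and 0.0279 with the block) and -0.35 ± 0.31 in bone marrow (pairs -0.68 and -0.02; adjusted p = 0.939, and 0.341 with the block). On the mean over tissues 1459522_s_at gave 0.58 ± 0.16 (adjusted p = 0.342, and 0.000703 with the block) and 1448429_at 0.67 ± 0.14 (adjusted p = 0.0507, and 0.00171 with the block). The probes of 1459522_s_at may be shared with other transcripts, as its suffix marks, and 1448429_at lay at or above the array median in both controls of spleen and bone marrow only. Leaving out bone marrow control replicate 1 brought both Gyg means past the threshold without the block (0.71, adjusted p = 0.0175, and 0.74, adjusted p = 0.0228). For 1448429_at, so did leaving out duodenum control replicate 2 (adjusted p = 0.046), liver IRP2 replicate 2 (adjusted p = 0.0414) or brain control replicate 2 (adjusted p = 0.0119), and for 1459522_s_at quantile normalization (adjusted p = 0.0435).

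Hao1 could be judged in liver alone, the tissue known for glycolate oxidase. Liver Hao1 read 12.91 and 13.07 with IRP2 and 11.37 and 11.61 in the controls, where it stood at the 98.2nd percentile. The liver ratio was 1.5 ± 0.48 (2.83-fold; 95% interval 0.48 to 2.52; limma adjusted p = 1, and 0.0473 with the replicate block), the largest ratio of any member probe set in any tissue, and both replicate pairs showed it (1.54 and 1.46). Elsewhere the control arrays averaged between the 20.9th and 28.3rd percentile. Brain Hao1 read 5.79 and 5.07 with IRP2 and 4.53 and 3.80 in the controls, a ratio of 1.26 between dim values (adjusted p = 1, and 0.201 with the block). Spleen Hao1 read 3.39 and 5.33 with IRP2 and 3.48 and 3.93 in the controls, and duodenum Hao1 4.08 and 5.09 with IRP2 and 4.40 and 4.70 in the controls, both overlapping. Bone marrow Hao1 read 4.01 and 4.18 with IRP2 and 3.88 and 3.99 in the controls, without overlap but all near the dim end. The mean over tissues, 0.72 ± 0.21 (adjusted p = 0.495, and 0.00801 with the block), thus averages 1 tissue that expresses Hao1 with 4 in which it is dim. It was called without the block when spleen IRP2 replicate 1 was left out (0.92, adjusted p = 0.0194).

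Cep95 gave different pictures on its 2 tested probe sets. Duodenum Cep95 on 1436572_at read 7.88 and 7.67 with IRP2 and 6.94 and 6.61 in the controls. Liver Cep95 read 7.51 and 7.55 with IRP2 and 6.62 and 6.79 in the controls, and spleen Cep95 8.14 and 8.17 with IRP2 and 7.47 and 7.52 in the controls. These 3 tissues showed no overlap. Brain Cep95 read 7.86 and 6.81 with IRP2 and 7.23 and 6.53 in the controls, and bone marrow Cep95 6.96 and 7.42 with IRP2 and 7.50 and 7.03 in the controls, both overlapping. The mean ratio of 1436572_at was 0.57 ± 0.14 (limma adjusted p = 0.183, and 0.00395 with the replicate block). The dimmer 1440280_at had both control arrays at or above their array medians in no tissue, so its ratios are between dim values. Among its controls, bone marrow replicate 2 alone reached the array median. The probe set thus passed the filter only through IRP2 arrays of spleen and bone marrow, and its calls are a description only. It had its highest ratio in bone marrow, 0.78 ± 0.20 (adjusted p = 0.597, and 0.0452 with the block), where 1436572_at gave -0.07, and its lowest in duodenum, 0.14, where 1436572_at gave 1.00. Its mean ratio was 0.37 ± 0.09 (adjusted p = 0.172, and 0.0143 with the block). Single arrays decided some Cep95 calls without the block: the 1436572_at mean was called without brain IRP2 replicate 2 (0.68, adjusted p = 0.0117), and 1440280_at without bone marrow control replicate 2, in bone marrow (1.04, adjusted p = 0.0185) and on the mean (0.42, adjusted p = 0.0303). The remaining probe set, 1436620_at, stayed at 4.04 or below on every array.

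**Figure D2:**
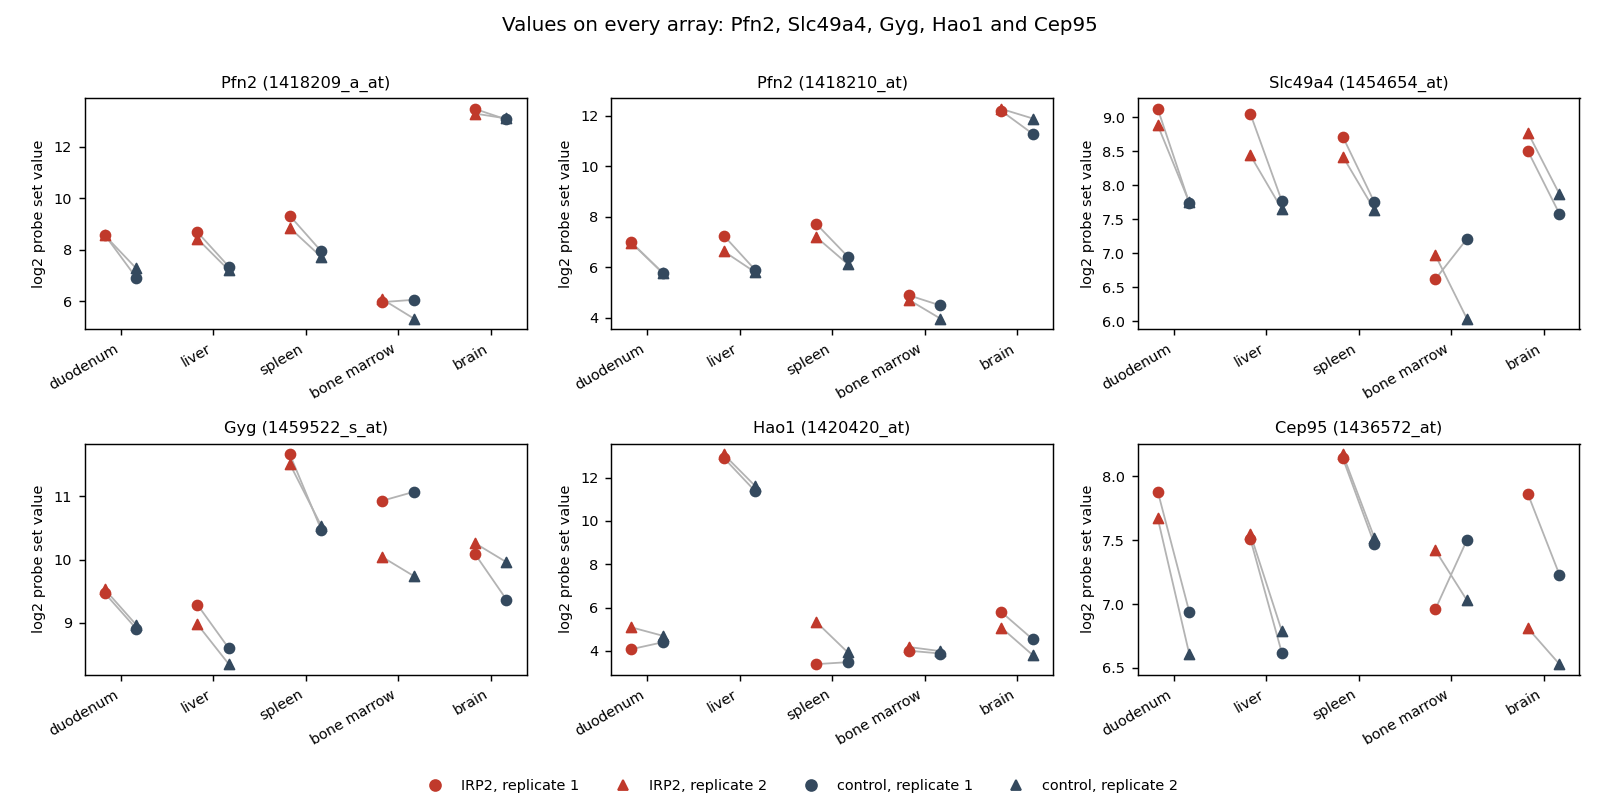
Deposited log2 values of every array are plotted by tissue for Pfn2 (2 probe sets), Slc49a4, Gyg, Hao1 and Cep95, with IRP2 arrays in red left of control arrays in dark, circles for replicate 1 and triangles for replicate 2, and grey lines joining the arrays of 1 replicate number. Red points lie above dark points in duodenum, liver and spleen for Pfn2, Slc49a4, Gyg and Cep95 and in liver for Hao1, where the levels reach 12.91 and 13.07.

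App was abundant in all 5 tissues and gave no call in any of them. On 1427442_a_at, brain App read 13.16 and 12.89 with IRP2 and 13.13 and 12.73 in the controls, and duodenum App 12.31 and 12.38 with IRP2 and 12.16 and 12.77 in the controls. Liver App read 11.10 and 11.48 with IRP2 and 11.29 and 11.53 in the controls, and spleen App 11.69 and 11.47 with IRP2 and 11.53 and 11.30 in the controls. The groups overlapped in each of these tissues. Bone marrow App read 10.00 and 8.73 with IRP2 and 10.39 and 8.27 in the controls, a spread between replicates wider than any gap between reactions. The mean ratio was 0.01 ± 0.23 (limma adjusted p = 1, 95% interval -0.47 to 0.49, and -0.18 to 0.20 with the replicate block), which leaves out a 2-fold difference on the mean. By tissue, the intervals without the block reached 1.24 in spleen, 1.17 in brain and 1.10 in bone marrow, past 2-fold. Those of duodenum and liver ran from -1.19 to 0.95 and from -1.19 to 0.96. With the block the upper limits in spleen, brain and bone marrow were 0.59, 0.52 and 0.46. The blocked intervals of all 5 tissues lay between -0.55 and 0.59, inside 2-fold. The second bright probe set, 1420621_a_at, gave 0.17 ± 0.10 (interval -0.05 to 0.38, and 0.01 to 0.33 with the block; adjusted p = 1, and 0.405 with the block), with 9 of 10 pairs above 0. The dim 1438374_x_at gave 0.07 ± 0.19, and 1438373_at was too dim to be tested.

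Ndufs1 was also well measured everywhere, with control arrays between the 89.7th and 95.1st percentile by tissue. Duodenum Ndufs1 read 10.02 and 10.31 with IRP2 and 9.86 and 10.38 in the controls, and liver Ndufs1 9.83 and 9.98 with IRP2 and 9.95 and 9.98 in the controls. Spleen Ndufs1 read 9.12 and 8.96 with IRP2 and 9.17 and 9.07 in the controls. Bone marrow Ndufs1 read 8.33 and 8.47 with IRP2 and 8.58 and 8.33 in the controls, and brain Ndufs1 9.78 and 9.91 with IRP2 and 9.85 and 9.85 in the controls. The groups overlapped or touched in all 5 tissues. Its 10 pairs ran from -0.25 to 0.16, and the mean ratio was -0.03 ± 0.09 (interval -0.23 to 0.16; limma adjusted p = 1), so a 2-fold difference lies outside the interval.

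Cdc42bpa was measured well on 1435847_at in every tissue. Duodenum Cdc42bpa read 8.38 and 8.08 with IRP2 and 8.03 and 8.20 in the controls, and liver Cdc42bpa 8.39 and 8.16 with IRP2 and 8.28 and 8.30 in the controls. Spleen Cdc42bpa read 7.94 and 7.73 with IRP2 and 7.69 and 7.62 in the controls, the only tissue of the 5 in which the groups did not overlap. Bone marrow Cdc42bpa read 8.12 and 7.93 with IRP2 and 7.77 and 8.51 in the controls, and brain Cdc42bpa 8.65 and 8.72 with IRP2 and 8.66 and 8.51 in the controls. The mean ratio was 0.05 ± 0.10 (interval -0.17 to 0.27; limma adjusted p = 1). The dimmer 1436380_at gave -0.03 ± 0.09, and 1438449_at and 1442260_at were not tested.

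Cdc14a had its highest level in duodenum and was dim in liver. Duodenum Cdc14a on 1436913_at read 9.12 and 9.61 with IRP2 and 8.69 and 9.53 in the controls, and spleen Cdc14a 8.12 and 7.98 with IRP2 and 8.20 and 8.17 in the controls. Bone marrow Cdc14a read 7.06 and 7.0 with IRP2 and 7.99 and 6.96 in the controls. Brain Cdc14a read 5.83 and 5.39 with IRP2 and 5.88 and 5.59 in the controls, and liver Cdc14a 5.29 and 5.42 with IRP2 and 5.15 and 5.44 in the controls. Of the 5 tissues, the arrays separated in spleen alone, with both IRP2 values below the controls. The mean ratio was -0.07 ± 0.14 (interval -0.38 to 0.23; limma adjusted p = 1). The probe sets 1443184_at and 1446493_at were too dim to be tested, so transcript forms of Cdc14a and Cdc42bpa that only such probe sets read were not measured.

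**Figure D3:**
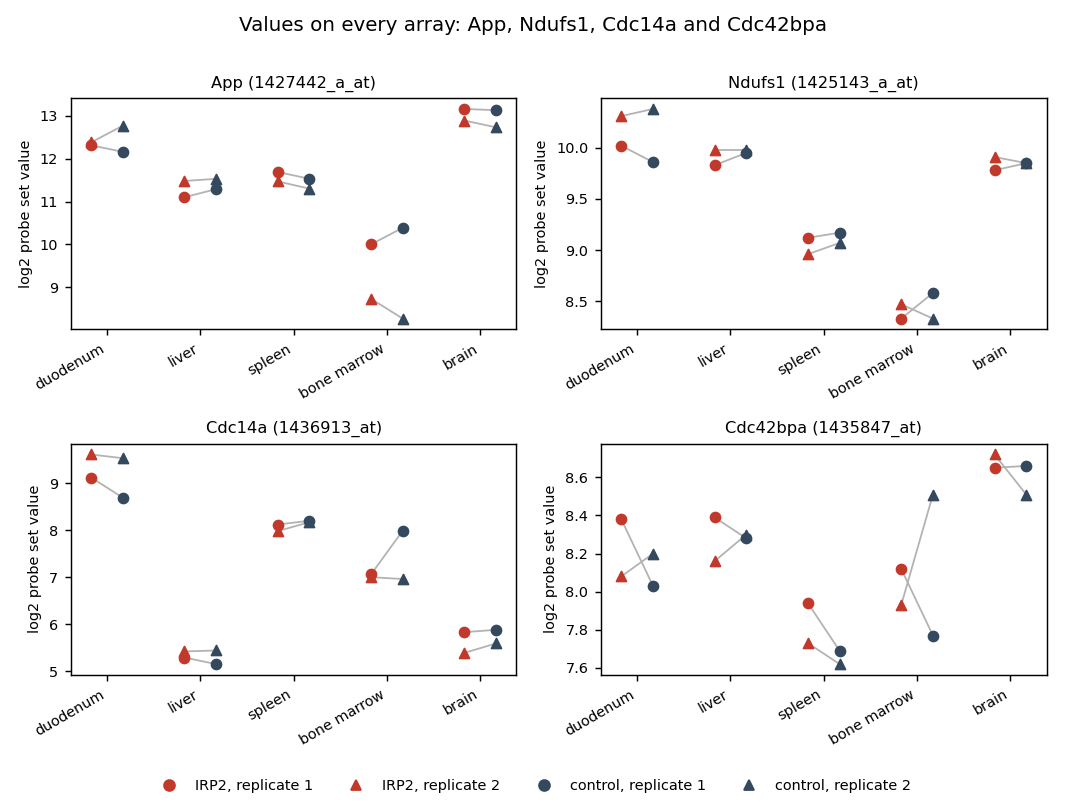
Deposited log2 values of every array are plotted by tissue for App, Ndufs1, Cdc14a and Cdc42bpa, drawn as in the plot for Pfn2 and Slc49a4. Red and dark points interleave in most tissues, and Cdc14a runs from 5.15 in a liver control to 9.61 in a duodenum IRP2 reaction.

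Each probe set was counted as measured well enough to judge in a tissue where both control arrays reached the median of their own array. Of the 16, duodenum had 11 such probe sets and liver also 11, spleen and brain had 12 each, and bone marrow had 10. Pfn2 on 1436993_x_at, Slc49a4, Gyg on 1459522_s_at, Cep95 on 1436572_at, App on 1427442_a_at and 1420621_a_at, Ndufs1 and Cdc42bpa on 1435847_at could be judged in all 5 tissues, Cdc14a in all but liver, and Hao1 in liver only. Pfn2 on 1418209_a_at and 1418210_at could be judged in all but bone marrow, and Gyg on 1448429_at in spleen and bone marrow. Cdc42bpa on 1436380_at could be judged in brain, and App on 1438374_x_at and Cep95 on 1440280_at in no tissue. In these bulk samples, fewer cells of a type and less RNA per cell cannot be told apart. The IRP2 arrays lay wholly above the controls for 11 of the 16 probe sets in spleen (15.6% of all), 9 in liver (13.9%), 7 in duodenum (14.4%), 7 in brain (4.21%) and 5 in bone marrow (14.5%). The median ratio over the 9 genes, each by its brightest probe set, was 0.66 in liver beside -0.04 over all probe sets tested, 0.65 in spleen beside -0.02, 0.33 in brain beside -0.02, 0.26 in duodenum beside 0.04 and 0.03 in bone marrow beside -0.04.

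No member probe set was called in liver, spleen, bone marrow or brain by limma without the block, where the shares of all probe sets called higher were 0.0332% for liver, 0.063% for spleen, 0.00995% for bone marrow and 0.0597% for brain. At an unadjusted p under 0.05, 7 of 16 were higher in liver (0.793% of all), 6 in spleen (0.869%), 4 in brain (0.551%) and 1 in bone marrow (1.73%). With the replicate block, 4 were called in spleen (0.292% of all), 3 in liver (0.206%), 1 in bone marrow (0.378%) and 0 in brain (0.139%), where 7 brain values had an unadjusted p under 0.05 (1.74% of all). The bone marrow call was that of Cep95 1440280_at, which entered the test only through its IRP2 arrays. A limma fit on the 4 spleen arrays alone called 7 member probe sets, against 0.64% of all (193 probe sets higher with IRP2): the 3 of Pfn2, both of Gyg, Slc49a4 (adjusted p = 0.00744) and Cep95 1436572_at (adjusted p = 0.0307). On the mean, 11 of 16 probe sets had an upper 95% limit under a 2-fold difference, against 99.5% of all, and 13 with the block, against 99.7%.

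**Figure D4:**
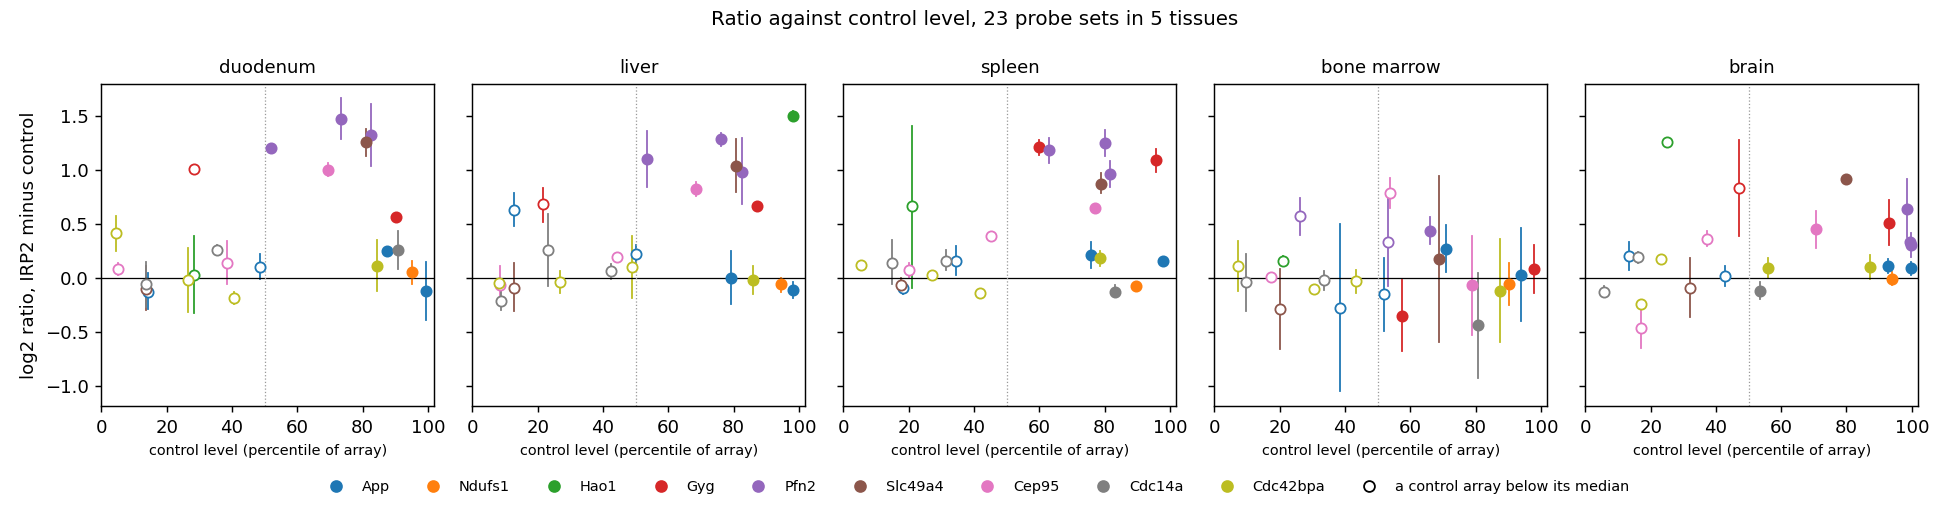
In 5 panels, 1 per tissue, the log2 difference of IRP2 minus control is plotted for all 23 member probe sets, the 7 untested ones included. It is set against the percentile of the control level on its arrays, with bars spanning the 2 replicate pairs. Filled points, measured well enough to judge, number 10 to 12 per tissue, and the open Hao1 point in brain stands at 1.26 near the 24.9th percentile.

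A difference of the ratio between tissues was not called for any member by limma's F test (adjusted p = 1 for each, and 0.553 or above with the replicate block), against 0.00332% of all probe sets (0.0398% with the block). Before adjustment the lowest values of limma's F test belonged to Pfn2 1418209_a_at, at 0.00759, and Gyg 1448429_at, at 0.0238, so 2 of the 16 were under 0.05 (0.604% of all). With the block 6 of the 16 were under 0.05 before adjustment (6.37% of all), namely Pfn2 1418209_a_at and 1436993_x_at, both of Gyg, Hao1 and Cep95 1436572_at. The difference of the Pfn2 ratio between tissues, lower in brain and bone marrow, thus did not pass after adjustment.

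Bone marrow control replicate 1 stood apart from the other bone marrow arrays. Its values correlated with the spleen arrays at a Spearman rho of 0.908, and the other 3 bone marrow arrays at 0.824 to 0.825, and the ratios of the bone marrow pairs correlated at 0.0178 across probe sets, where the other tissues gave 0.187 to 0.364. Without that array the bone marrow ratio was 0.70, 0.83 and 0.71 for Pfn2 1418209_a_at, 1418210_at and 1436993_x_at, 0.76 for Slc49a4, 0.74 for Gyg 1459522_s_at, 0.16 for Cep95 1436572_at and 1.09 for App 1427442_a_at. With that array they were 0.33, 0.57, 0.43, 0.17, 0.08, -0.07 and 0.03, in the same order. Other members moved down: without the array the ratio was -0.54 for App 1438374_x_at, -0.49 for Cdc42bpa 1435847_at, 0.52 for Cep95 1440280_at and 0.11 for Hao1, and with it -0.15, -0.12, 0.78 and 0.16. The remaining values without it were 0.38 for App 1420621_a_at, 0.07 for Ndufs1, 0.07 for Cdc14a, -0.01 for Gyg 1448429_at and -0.03 for Cdc42bpa 1436380_at, and with it 0.27, -0.06, -0.44, -0.35 and -0.03. Without the array, limma's adjusted p was 1 for each of the 16 probe sets. With all 4 bone marrow arrays left out, a choice made after the data were seen, the mean ratio was called for 6 member probe sets, against 0.425% of all: Pfn2 at 0.90, 1.08 and 1.03, Slc49a4 at 1.02, and Gyg at 0.70 (adjusted p = 0.00711) and 0.93 (adjusted p = 0.0144). The tissue markers on the arrays otherwise followed their labels: 19 of 22 measured markers were highest in their own tissue, the exceptions being Cd3e, Gfap and Mbp, which were highest in duodenum, as were the pancreas markers Cela1 and Cpa1.

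For scale, canonical IRE mRNAs were read on the same arrays. Of 6 tested genes of the list, 4 were called on the mean and 6 with the block, with a median ratio of 1.14. Tfrc gave 1.90 on its brightest probe set and 3.30 on its highest, and Fth1 gave 0.83 on its brightest and 1.13 on its highest, beside 0.85 for Slc49a4 and 0.80 to 0.94 for Pfn2. Slc40a1 gave 0.45 on its brightest and 1.61 on its highest, and Epas1 0.46 and 0.77. A mean ratio under 2-fold was thus also found among canonical IRE mRNAs. Paralogues and partners of the 9 genes were read as well: 19 of 23 were tested, 0 were called by limma in any tissue or on the mean, where 1 had an unadjusted p under 0.05, and their mean ratios ran from -0.15 to 0.39 with a median of 0.00. With the block 1 was called, Cdc42bpg at 0.39 (adjusted p = 0.0321). Pfn1, the ubiquitous profilin, had a mean ratio of 0.28 ± 0.21, against 0.80 to 0.94 for Pfn2.

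The genes whose levels over the 20 arrays were most like each member's brightest probe set were read as a description of tissue pattern, since these arrays share tissues. Hao1 was nearest to Pon1 and Plg (Pearson r = 0.984 for each), Ndufs1 to Ndufa5 (r = 0.991) and Hook1 (r = 0.989), and Cdc14a to Serpinb1a (r = 0.992) and Mtm1 (r = 0.984). Pfn2 was nearest to Nr2f1 (r = 0.977) and Camk2n1 (r = 0.971), and App to Atp6ap2 (r = 0.981) and Fkbp1a (r = 0.974). Lower values held for Slc49a4 with Nr3c1 (r = 0.932) and Cct7 (r = 0.925), Gyg with Phf21a (r = 0.931) and Inpp5k (r = 0.919), Cdc42bpa with Efna5 (r = 0.921) and Pamr1 (r = 0.919), and Cep95 with Dhx9 and Zfp101 (r = 0.857 for each).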

How the data were processed

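The authors deposited log2 probe set values, per the labels' protocols made from about 120 ng of recovered RNA after 2-cycle amplification and biotin labelling. Per the series' design text, intensities came from RMA, or from MAS5 in GCOS with quantile normalization, and which of them made which array is not stated there. Values ran from 1.77 to 15.0. Array medians were 5.65 to 5.71 in duodenum, liver and brain replicate 1 and 5.38 to 5.55 on the others, so contrasts were taken within tissues. Brain fell in both ranges, with medians of 5.66 and 5.65 in replicate 1 and 5.41 on both arrays of replicate 2. The fit without the block leaves that brain difference in the spread, which all tissues share, and the fit with the block takes it up.

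After 64 Affymetrix control probe sets were set aside, 30153 probe sets (66.9%) were tested, a probe set entering when 2 or more of the 20 arrays read it at or above that array's median. limma 3.58.1 in R 4.3.3 fitted a mean for each of 10 groups (10 residual degrees of freedom, prior 5.34), with contrasts of IRP2 minus control per tissue, their mean, and an F test of their difference. P-values were two-sided, adjusted by Benjamini-Hochberg over all probe sets tested. Arrays give no read depth, and their number limits the precision. The fit was tested on simulated data.

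The labels say that the control reaction ran in parallel and number the replicates, and deviations of same-numbered arrays from their group means correlated at 0.923 in brain, 0.676 in duodenum, 0.565 in liver, 0.385 in spleen and 0.251 in bone marrow. Same-numbered arrays were thus treated as pairs, and the blocked fit had a term for each tissue's replicate number (5 residual degrees of freedom; prior 7.52). Every probe set of the 9 genes is accounted for. As references, the brightest and the highest-ratio probe set of each listed IRE gene, the brightest of each listed relative, and the 2 genes nearest in level to each member are named. Members and lists were chosen with earlier results of these data known. Alternatives were the block, the filter, normalization, centring, 1 probe set per gene, single-tissue fits and leaving out arrays.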

Additional observations from a re-analysis of the deposited data

How the results depend on the processing

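Of 1262 member ratios recomputed under the alternatives, 1217 kept their direction where called and their side of the threshold, 39 passed it only under the alternative and 6 only as reported, and no called ratio turned round. Signs changed for 69 uncalled ratios, the largest of them 0.66 as reported. With the replicate block, calls higher with IRP2 over all probe sets numbered 322 on the mean, 85 in duodenum, 62 in liver, 88 in spleen, 42 in brain and 114 in bone marrow (110, 22, 10, 19, 18 and 3 without it), calls lower 4, 4, 4, 105 and 44 in duodenum, liver, spleen, bone marrow and on the mean, member calls 3, 3, 4, 1 and 9 in the same comparisons, and tissue differences 12. Without the filter, or with arrays centred on their medians, 0 probe sets were called higher in bone marrow, and centring left 0 tissue differences. With the stricter filter 7 member probe sets had an upper limit on the mean under 2-fold. Quantile normalization gave 0 member calls and 1 lower call in duodenum, 14 higher and 1 lower in bone marrow, 4 lower on the mean and 0 tissue differences. With 1 probe set per gene, calls higher were 11 in duodenum, 6 in liver, 0 in bone marrow, 7 in brain and 54 on the mean, member calls 0 in duodenum and 2 on the mean, and members with an upper limit under 2-fold 4, 4, 3, 7, 4 and 6 in duodenum, liver, spleen, bone marrow, brain and on the mean; fewer probe sets enter that fit. Fits on 1 tissue alone called 0 higher in duodenum, bone marrow and brain, 0 lower in brain, 0 members in duodenum, and 193 higher, 12 lower and 7 members in spleen. With the bone marrow arrays left out and the block, chosen after seeing the data, the mean had 686 higher, 139 lower and 9 member calls. At the 25th percentile, 16 member probe sets could be judged in bone marrow. Leaving out 1 array at a time gave 88 to 139 calls higher on the mean, 1 to 11 in duodenum, 2 to 4 in liver, 5 to 9 in spleen, 6 to 15 in brain and 0 to 89 in bone marrow, 0 to 1679 lower in bone marrow, 0 to 1 in brain and 2 to 15 on the mean, member calls of 0 in duodenum, 0 to 1 in bone marrow and 4 to 6 on the mean, and 0 to 2 tissue differences. Members with an upper limit under 2-fold then numbered 9 to 13 in bone marrow and on the mean, 6 to 10 in brain, 5 to 7 in duodenum, 5 to 6 in liver and 6 to 7 in spleen. Where a value moved and no reason is given, the cause was not tested.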

Other observations

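The 7 member probe sets that were too dim to be tested were also compared between reactions. Cdc14a 1443184_at had 8 of 10 replicate pairs above 0, at levels between 3.41 and 5.31. Both of its IRP2 arrays lay above both controls in 2 tissues, duodenum and spleen, as held for 14.4% and 15.6% of all probe sets tested. The same separation held for App 1438373_at in liver (13.9%) and brain (4.21%) and for Cdc42bpa 1442260_at in duodenum. App 1438373_at had 6 of 10 pairs above 0 and its single highest value, 5.72, in a bone marrow control reaction. Cdc14a 1446493_at had 3 of 10 pairs above 0. Shares of all probe sets were not counted for pairs, so the pair counts are a description only.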
